A study of Mus musculus with 64 samples.

Results

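The BCL2 family decides whether the outer membrane of mitochondria is opened during apoptosis. Its members were taken as the rows whose symbol equalled 1 of 10 names: the anti-apoptotic Bcl2, Bcl2l1, Bcl2l2 and Mcl1, and the pro-apoptotic Bax, Bak1, Bok, Bad, Bid and Bcl2l11. All 10 had a row in the tables of prefrontal cortex (15697 genes), hippocampus (15573 genes) and hypothalamus (16155 genes). The blood table (8830 genes) held 8 of them and had no row for Bad and Bok.

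The libraries came from male mice of the BALB/c strain aged 28 weeks. In the stressed group, Unpredictable Chronic Mild Stress (UCMS), a schedule of changing mild stressors used as a model of depression, lasted 9 weeks, and the control group was left without it. The same 16 animals, 8 control and 8 UCMS, gave all 3 brain regions. Whole blood came from 7 controls and 9 stressed mice, and 17 animals in all gave the 64 libraries. Collection fell 14 to 16 hours after stress ended, from ZT12.5 to ZT14.5, where ZT counts hours from lights on. Each sample is bulk RNA, so fewer cells of a type and less RNA per cell cannot be told apart.

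In healthy cells the anti-apoptotic members hold Bax and Bak1 in check. BH3-only proteins such as Bid, Bad and Bcl2l11 (BIM) relay stress signals by binding the anti-apoptotic members or by activating Bax and Bak1, which then form pores and release cytochrome c. Mature neurons depend on this balance for their long survival, and red cell precursors rely on Bcl2l1 (BCL-XL) as they fill with hemoglobin.

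Values are log2 normalized levels, a scale on which 1 unit is a doubling. Both the base and the normalization were inferred from the values. A level is compared only for 1 gene, since levels were not corrected for gene length, and the tables of the tissues were normalized separately, so levels set side by side across tissues carry no test. The hypothalamus marker peptides Hcrt, Pmch and Avp had median levels of 8.44, 9.49 and 8.84 in the hypothalamus table. In prefrontal cortex none of the 3 had a row, and in hippocampus Pmch alone had one, running from 0.741 to 6.983 in controls and from 0.452 to 7.329 in UCMS. Sequencing depth is unknown.

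Promoter sequence is shown for the member with the largest difference between groups, Bcl2l11, and for the member that was highest in hemoglobin-rich brain libraries, Bcl2l1. The windows are the 250 bases before a transcription start, from RefSeq on GRCm38.p6, 5′ to 3′ on the gene's strand. Capitals mark matches, on either strand, to 4 motifs: TGTTCT (a glucocorticoid receptor half-site), GTAAACA (a FOXO site), AGATAA (the motif of GATA factors) and GGGCGG (a GC box). Matches that touch or overlap run together in capitals.

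Bcl2l11 upstream start, chr2:128125788-128126037, plus strand: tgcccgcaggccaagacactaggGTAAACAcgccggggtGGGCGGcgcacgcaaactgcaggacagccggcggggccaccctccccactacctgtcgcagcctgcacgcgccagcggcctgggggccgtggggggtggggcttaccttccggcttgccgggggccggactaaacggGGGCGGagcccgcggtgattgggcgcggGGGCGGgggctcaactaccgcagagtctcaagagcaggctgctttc
Bcl2l11 downstream start, chr2:128127325-128127574, plus strand: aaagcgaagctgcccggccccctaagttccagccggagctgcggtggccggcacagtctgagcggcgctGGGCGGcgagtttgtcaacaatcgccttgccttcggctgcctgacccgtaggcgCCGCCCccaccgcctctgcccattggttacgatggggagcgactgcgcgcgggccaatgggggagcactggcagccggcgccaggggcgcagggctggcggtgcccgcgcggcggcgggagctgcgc
Bcl2l1 innermost start, chr2:152828490-152828739, minus strand: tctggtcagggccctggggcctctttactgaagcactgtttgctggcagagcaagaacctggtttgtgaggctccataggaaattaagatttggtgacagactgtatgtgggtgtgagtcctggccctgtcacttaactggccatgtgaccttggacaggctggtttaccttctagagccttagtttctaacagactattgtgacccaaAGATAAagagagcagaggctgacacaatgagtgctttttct

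The upstream start of Bcl2l11 held 1 FOXO match and 3 GC boxes, and its other start held 2 GC boxes. The innermost start of Bcl2l1 held 1 GATA match. RefSeq lists 3 starts of Bcl2l1, and the windows of the other 2 held no match to any of the 4 motifs. Over 32851 promoter windows of the same length, the FOXO site was found in 3.17%, the GATA site in 9.99%, the GC box in 32.7% and the glucocorticoid receptor half-site in 16.1%. All 10 members had a window, 14 starts in all, with a FOXO match at 1, a GATA match at 1 and a GC box at 9. The glucocorticoid receptor half-site was found at 1 start, that of Bok. The Bcl2 window had the most GC boxes, 7, and a GC content of 74.8%, against a median of 52.4% over all windows. A match describes letters in this window and is not a binding site.

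Levels in control animals are given side by side for the 4 tables. Bcl2, the founding anti-apoptotic member, stood at 7.37 ± 0.098 (SD, n = 8) in prefrontal cortex, then at 6.78 ± 0.11 in hippocampus, followed by hypothalamus with 5.34 ± 0.11 and blood with 4.60 ± 0.31 (n = 7). The control ranges of neighbouring tissues in that order did not overlap, which held for 1 of the 8 members with a row in all 4 tables and for 0.763% of 7991 such genes. Bcl2l1 had the reverse placing of blood, with 8.62 ± 0.34 (n = 7) there against 5.95 ± 0.18 in hypothalamus, 5.75 ± 0.18 in prefrontal cortex and 5.74 ± 0.18 in hippocampus. The brain regions overlapped each other, and blood overlapped none of them.

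Bcl2l2 (BCL-W), an anti-apoptotic member studied in neurons, stood at 6.21 ± 0.11 in hippocampus, 6.20 ± 0.23 in prefrontal cortex and 6.09 ± 0.090 in hypothalamus, all overlapping, and at 2.50 ± 0.69 in blood. Mcl1, a short-lived anti-apoptotic protein, ran from 5.59 ± 0.068 in prefrontal cortex to 6.20 ± 0.27 in blood, and neighbouring tissues overlapped. Of the pore formers, Bax stood at 4.59 ± 0.15 in hippocampus and 2.44 ± 0.66 in blood, with prefrontal cortex (4.43 ± 0.16) and hypothalamus (4.34 ± 0.10) between them. Bak1 ranged from 3.60 ± 0.19 in hippocampus to 3.85 ± 0.33 in blood. Bok, a relative of Bax and Bak1, was at 5.21 ± 0.15 in hippocampus, 5.18 ± 0.23 in prefrontal cortex and 4.61 ± 0.34 in hypothalamus.

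Among the BH3-only members, Bcl2l11 stood at 5.79 ± 0.11 in hippocampus, 5.58 ± 0.21 in prefrontal cortex and 5.47 ± 0.23 in hypothalamus, and at 3.73 ± 0.20 in blood, below every brain library of the controls. Bid, which caspase-8 cleaves to link death receptors to mitochondria, stood between 3.58 ± 0.43 in blood and 3.82 ± 0.13 in prefrontal cortex, with all neighbours overlapping. Bad, whose phosphorylation by survival kinases keeps it inactive, stood at 4.83 ± 0.12 in hypothalamus, 4.61 ± 0.10 in hippocampus and 4.50 ± 0.091 in prefrontal cortex. Of 28 neighbouring pairs of tissues over the 10 members, 7 did not overlap, a share of 25% that is near the 21.1% of such pairs over all genes.

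**Figure D1:**
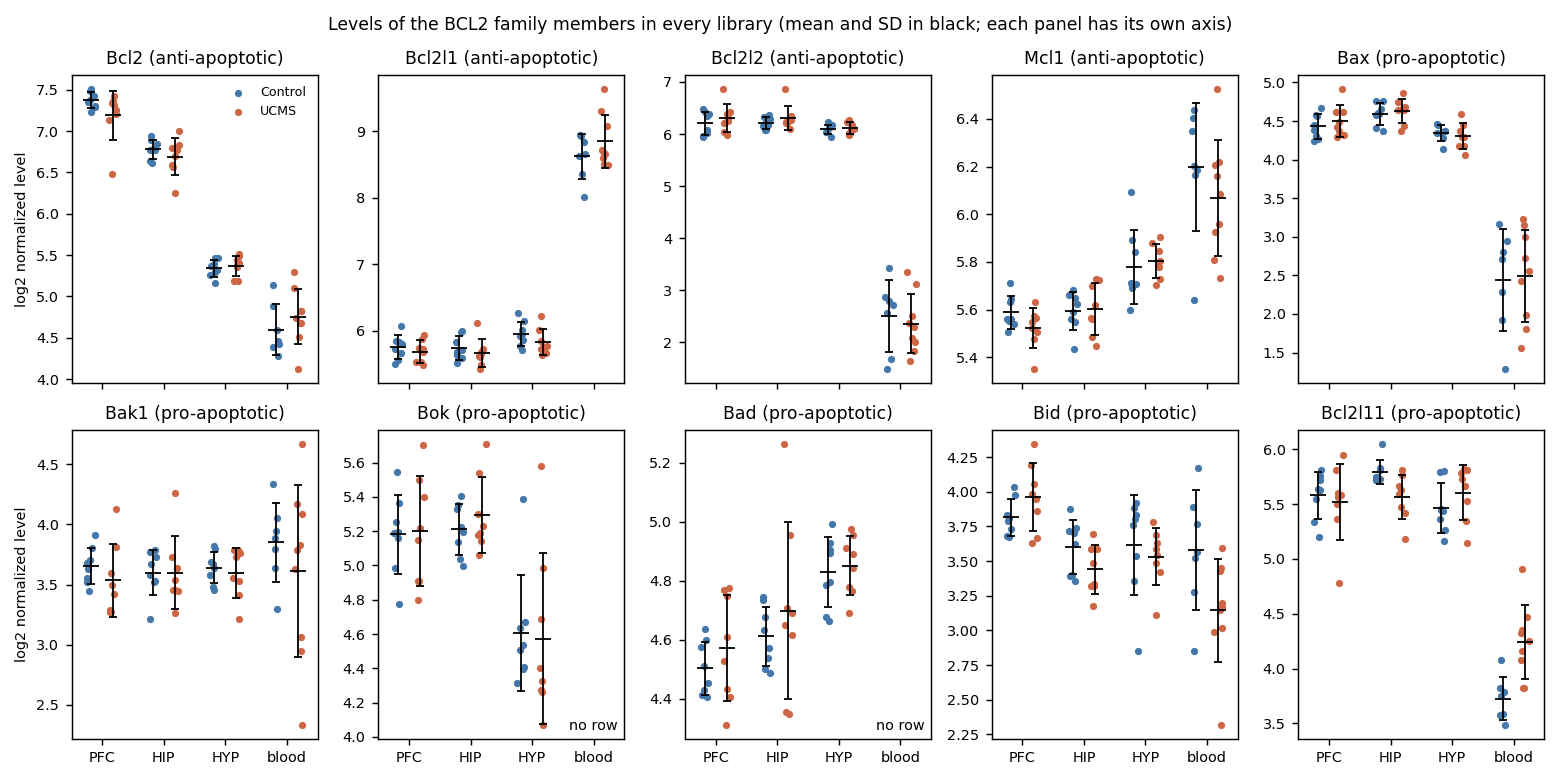
Log2 normalized level of each of the 10 members (panels) in every library of the 4 tissues (x axis), controls in blue and UCMS in orange. Bcl2 steps down from prefrontal cortex to blood, while Bcl2l1 is highest in blood. Bad and Bok have no row in the blood table.

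The main comparison asked which members differed between UCMS and control animals. By limma's moderated test with Benjamini-Hochberg adjustment over all genes of a table, 0 of 10 members passed in each brain region and 0 of 6 tested members passed in blood, where 0.0% of all tested genes passed in each of these comparisons. In blood, Bax and Bcl2l2 lay among the 10% of genes with the lowest mean level and were not tested. At an unadjusted p under 0.05 stood 0 of 10 members in prefrontal cortex (background 2.18% of all tested genes), 1 of 10 in hippocampus (2.95%), 0 of 10 in hypothalamus (2.12%) and 2 of 6 in blood (10.8%). For the mean of the 3 regions in each animal it was 0 of 10 (3.62%, and 0.0% with adjustment). Leaving out hemoglobin-rich samples made the unadjusted count 1 of 10 in hypothalamus (Bcl2l1, -0.14, SE 0.060, limma adjusted p = 1) and 1 of 10 for that mean (Bcl2, -0.14, SE 0.058, limma adjusted p = 0.699). Among all tested genes, 331 of 14539 and 926 of 13517 then stood there. In every tissue, as many tested members had a higher UCMS mean as a lower one. The median log2 difference over members was -0.023 in prefrontal cortex and 0.0044 in hippocampus, and it was -0.0059 for hypothalamus and 0.015 for blood, and over all tested genes 0.0056, 0.0004, 0.0008 and -0.010.

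**Figure D2:**
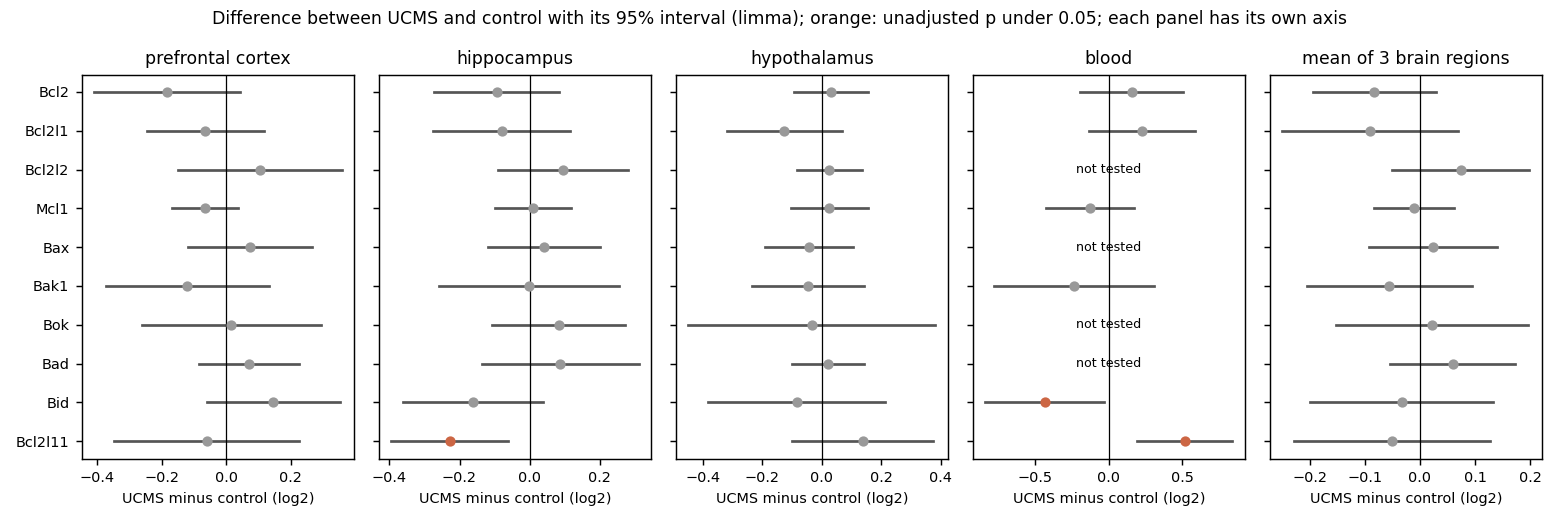
Log2 difference, UCMS minus control, of each tested member (rows) with its 95% interval, 1 panel per tissue and a last one that averages the 3 brain regions, each with its own axis. Orange points had an unadjusted p under 0.05, which were Bcl2l11 in hippocampus and Bcl2l11 and Bid in blood, and no member passed with adjustment.

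Among the anti-apoptotic members, Bcl2 in prefrontal cortex had the largest brain difference. Control levels ran from 7.233 over a median of 7.361 to 7.513, and UCMS levels ran from 6.482 over a median of 7.282 to 7.420. Of the UCMS animals, 7 of 8 lay below the control median and 3 below every control, with UCMS replicate 5 far below the rest. The difference was -0.18 (SE 0.11), limma's adjusted p was 0.987 and the two-sided exact permutation p was 0.0634. Without UCMS replicate 5 it was -0.083. In hippocampus the Bcl2 difference was -0.094 (SE 0.085), and -0.032 without UCMS replicate 3. It was in hypothalamus 0.030 (SE 0.059) and in blood 0.16 (SE 0.17).

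Bcl2l1 had lower UCMS means in all 3 brain regions, by -0.065 (SE 0.086), -0.080 (SE 0.092) and -0.13 (SE 0.091) in prefrontal cortex, hippocampus and hypothalamus, and a higher one in blood, 0.23 (SE 0.17). In blood, control levels ran from 8.003 over a median of 8.656 to 8.950 and UCMS levels from 8.486 over 8.667 to 9.642. The groups overlapped, with 3 of 9 UCMS animals above every control. The blood difference was 0.12 without control replicate 3, 0.13 without UCMS replicate 7 and 0.10 with the long-gene index described further on as a covariate. Mcl1 had the smallest SD over all libraries among the members in prefrontal cortex (0.081), hippocampus (0.092) and blood (0.25), with UCMS differences of -0.067 (SE 0.048), 0.0099 (SE 0.051) and 0.025 (SE 0.061) in the 3 regions and -0.13 (SE 0.14) in blood. Bcl2l2 was higher in UCMS means by 0.10 (SE 0.12), 0.095 (SE 0.088) and 0.025 (SE 0.052) in the 3 regions, and by 0.023 in prefrontal cortex without UCMS replicate 5 and 0.015 in hippocampus without UCMS replicate 3.

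With all libraries in, the pore formers showed small differences against their error. Bax differed by 0.072 (SE 0.091) in prefrontal cortex, 0.041 (SE 0.075) in hippocampus and -0.043 (SE 0.070) in hypothalamus. Without UCMS replicate 5 the first was 0.013, and without UCMS replicate 3 the second was 0.0078. In the blood table, where it was not tested, Bax stood at 2.44 ± 0.66 (n = 7) in controls and 2.49 ± 0.60 (n = 9) in UCMS. Bak1 differed by -0.12 (SE 0.12), -0.0011 (SE 0.12) and -0.045 (SE 0.089) in the regions and by -0.24 (SE 0.26) in blood. In prefrontal cortex 4 of 8 UCMS animals had Bak1 below every control and 1 above. The prefrontal value was -0.21 without UCMS replicate 5, and the blood value was -0.078 without UCMS replicate 7 and -0.079 with the long-gene index. With 1 library left out, the lowest limma unadjusted p of Bak1 in prefrontal cortex was 0.0436. Its limma adjusted p there was 0.913 or higher in every alternative. Bok differed by 0.016 (SE 0.13), 0.083 (SE 0.090) and -0.033 (SE 0.20), and by 0.024 in hippocampus without UCMS replicate 3. In hypothalamus, Bok stood at 5.387 in control replicate 5 and 5.581 in UCMS replicate 1, while the other 14 libraries ran from 4.071 to 4.984.

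The hippocampal BH3-only result was on Bcl2l11 (Entrez 12125, GRCm38 chromosome 2, 128126038 to 128162547, plus strand). Control levels were 5.718, 5.719, 5.730, 5.747, 5.751, 5.811, 5.828 and 6.046, and UCMS levels were 5.185, 5.418, 5.471, 5.590, 5.628, 5.662, 5.768 and 5.808. Of the UCMS animals, 6 of 8 lay below every control, and 2 lay within the control range. Controls averaged 5.79 ± 0.11 (SD, n = 8) and UCMS animals 5.57 ± 0.20 (n = 8), 14.6% lower on the linear scale. The log2 difference was -0.23 (SE 0.079, 95% interval -0.39 to -0.060), and the two-sided exact permutation p was 0.00839. With adjustment over 14015 genes it did not pass (limma, adjusted p = 0.990), and 1.28% of those genes were lower at an unadjusted p under 0.05. Leaving out 1 library at a time gave differences of -0.26 to -0.17. In the same libraries 6 of 7 microglia markers had a higher UCMS mean (list means from 5.63 to 5.85 in controls and from 5.71 to 5.92 in UCMS). None of 5 choroid plexus markers (2.60 to 7.09 and 2.68 to 7.15), 4 meninges markers (3.88 to 4.38 and 3.55 to 4.24) or the 4 of 6 red cell markers with a row (5.32 to 14.4 and 5.46 to 14.5) had one. Their part in the result was not tested.

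Blood Bcl2l11 differed the other way. Control levels were 3.488, 3.574, 3.583, 3.752, 3.784, 3.821 and 4.079, and UCMS levels were 3.821, 3.821, 4.075, 4.159, 4.252, 4.321, 4.356, 4.472 and 4.910. All 9 UCMS animals lay above the control median and 6 above every control. Controls averaged 3.73 ± 0.20 (SD, n = 7) and UCMS animals 4.24 ± 0.34 (n = 9), 43.1% higher on the linear scale. The log2 difference was 0.52 (SE 0.16), with an exact permutation p of 0.00227 (two-sided). It did not pass with adjustment over 7947 genes (limma, adjusted p = 0.401), of which 6.48% were higher at an unadjusted p under 0.05. UCMS replicate 7, the highest library, also had the highest mean of the red cell markers (5 of 6 had a row, 13.9 against 13.2 to 13.7 in controls) and the lowest of the platelet markers (5 of 5, 6.39 against 7.51 to 8.09). Without it the Bcl2l11 difference was 0.43, and with the long-gene index described further on as a covariate it was 0.42 (SE 0.14). Over the groups, 4 of 5 red cell markers were higher in the UCMS mean. So were 0 of 5 platelet markers, 0 of 6 neutrophil markers (list means from 3.89 to 5.82 in controls and from 3.78 to 5.66 in UCMS), 0 of 4 T cell markers (3.72 to 4.36 and 3.72 to 4.32), 0 of 3 monocyte markers (3.38 to 4.52 and 2.76 to 4.09) and 1 of 4 B cell markers (3.26 to 4.54 and 2.81 to 4.65). The part of these cell types in the blood results was not tested.

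Differences between tissues were tested within animals. The UCMS differences of Bcl2l11 in hypothalamus and hippocampus had opposite signs. The first minus the second was 0.36 (SE 0.11), which did not pass over all genes (limma, adjusted p = 1). In prefrontal cortex Bcl2l11 differed by -0.062 (SE 0.14) and in hypothalamus by 0.14 (SE 0.11). Blood minus hippocampus, a comparison added after the data were seen, gave 0.81 (SE 0.21, 7 control and 8 UCMS animals, limma adjusted p = 0.433). Over all genes, 0.0% passed in each of these comparisons of effects, and 0.014% (1 gene, no member) passed for blood minus hypothalamus.

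**Figure D3:**
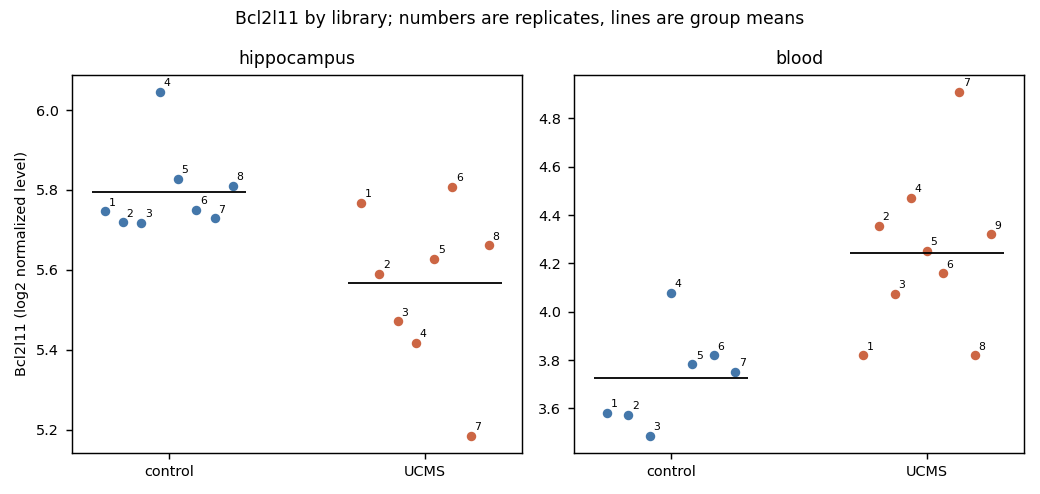
Log2 normalized level of Bcl2l11 in each library of hippocampus and blood, controls in blue and UCMS in orange, with group means as lines and replicate numbers beside the points. In hippocampus 6 of 8 UCMS libraries lie below every control, and in blood 6 of 9 lie above every control.

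Bid had a lower UCMS mean in blood. Control levels were 2.852, 3.279, 3.519, 3.568, 3.771, 3.893 and 4.174, and UCMS levels were 2.319, 2.989, 3.018, 3.149, 3.169, 3.197, 3.427, 3.449 and 3.593. The groups overlapped, and 8 of 9 UCMS animals lay below the control median. The log2 difference was -0.43 (SE 0.19), the exact permutation p (two-sided) 0.0442 and limma's adjusted p of 0.458, where 4.33% of tested genes were lower at an unadjusted p under 0.05. Without UCMS replicate 7, the lowest library, it was -0.33. With the long-gene index as a covariate the Bid difference was -0.42 (SE 0.21, limma unadjusted p = 0.0537). That library is the one with the highest red cell and lowest platelet mean, and no platelet, neutrophil, monocyte or T cell marker had a higher UCMS mean in blood. The part of these cells in the Bid result was not tested. In prefrontal cortex Bid was higher in the UCMS mean by 0.15 (SE 0.098) and in hippocampus lower by -0.16 (SE 0.095). The difference between these 2 effects, -0.31 (SE 0.14), did not pass (limma, adjusted p = 1). Bad differed by 0.069 (SE 0.073), 0.088 (SE 0.11) and 0.021 (SE 0.057) in the 3 regions, and by 0.0070 in hippocampus without UCMS replicate 3.

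The balance of the family was taken per animal as the mean level of pro-apoptotic members minus that of anti-apoptotic members. Its absolute value has no meaning, since genes differ in scale, and it was compared only between animals of 1 tissue, without a test. In prefrontal cortex it was -1.70 ± 0.072 (SD, n = 8) in controls and -1.63 ± 0.12 in UCMS, and 6 of 8 UCMS animals lay above the control median. In hippocampus it was -1.51 ± 0.087 and -1.53 ± 0.16, with 3 of 8 above. UCMS replicate 3 of hippocampus stood at -1.196 and the next UCMS library at -1.448. The hippocampal medians were -1.52 in controls and -1.59 in UCMS. In hypothalamus the balance was -1.37 ± 0.062 and -1.37 ± 0.094, with 4 of 8 above. Blood, with 4 pro- and 4 anti-apoptotic members, had -2.08 ± 0.33 (n = 7) and -2.13 ± 0.35 (n = 9), with 5 of 9 above. The blood balance includes Bax and Bcl2l2, which were not tested there because they lay among the 10% of genes with the lowest mean level. Their control SDs in blood, 0.66 and 0.69, were the largest among the members. In every tissue the groups overlapped and the difference of means was below the larger SD.

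The single ratio of Bax to Bcl2, as a log2 difference, was -2.94 ± 0.17 in control and -2.68 ± 0.49 in UCMS prefrontal cortex, where UCMS replicate 5 stood at -1.561 and the next at -2.518. In hippocampus it was -2.19 ± 0.13 and -2.05 ± 0.33, in hypothalamus -0.996 ± 0.091 and -1.07 ± 0.22, and in blood -2.15 ± 0.74 and -2.26 ± 0.58. The blood ratio rests on Bax, which lay there among the 10% of genes with the lowest mean level.

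**Figure D4:**
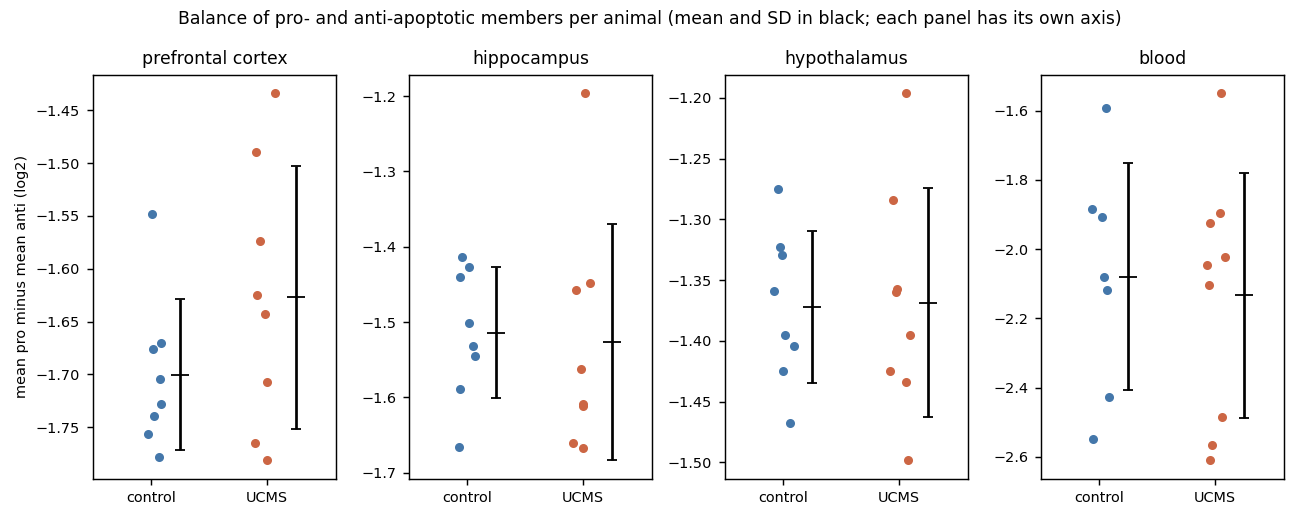
Mean log2 level of pro-apoptotic minus anti-apoptotic members in each animal, by tissue and group, each panel with its own axis and mean and SD in black. The groups overlap in all 4 tissues, and 1 UCMS library stands highest in hippocampus at -1.20.

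In some libraries several members were extreme at once. The share of all genes that were extreme in the same libraries was not computed. UCMS replicate 5 of prefrontal cortex was the highest of 16 libraries for Bcl2l2, Bax, Bak1, Bok and Bad and the lowest for Bcl2 and Bcl2l11. UCMS replicate 3 of hippocampus, another animal, was the highest for the same 5 members and the lowest for Bcl2. It also had the highest choroid plexus mean (7.15) and astrocyte mean (6.69) of its 16 libraries. Control replicate 5 of hippocampus came close in choroid plexus mean (7.085) and was the highest or lowest library for no member. Control replicate 3 came close in astrocyte mean (6.626) and was likewise extreme for no member. The part of these cell types was not tested. Those 5 genes span 4.86 to 10.1 kb, while Bcl2 spans 176 kb and Bcl2l11 36.5 kb. Mcl1, the shortest member at 4.39 kb, was not high in either library. It stood at 5.505 in the first (control median 5.561) and at 5.446 in the second (control median 5.609). Bcl2l1, which spans 51.1 kb, stood at 5.877 and 5.726 (control medians 5.762 and 5.689). Bid, which spans 24.9 kb, stood at 4.196 and 3.698 (control medians 3.802 and 3.661). The part of gene span in the member levels was not tested. In both libraries short genes as a whole were high: genes under 10 kb had a median deviation of 0.154 in the first and 0.158 in the second, and genes over 100 kb of -0.036 and -0.024. The long-gene index, the median deviation of the long genes minus that of the short ones, was -0.189 in the first, where the other 15 ran from -0.090 to 0.078, and -0.181 in the second, where the others ran from -0.045 to 0.074. In blood the index ran from -0.21 to 0.19 and was highest in UCMS replicate 7. This index was also used as a covariate, an alternative added after the data were seen. The Bcl2 difference in prefrontal cortex was then -0.14 (SE 0.072, limma unadjusted p = 0.0656, adjusted 0.977), with an SE of 0.11 and limma unadjusted p = 0.103 in the main fit. That of Bcl2l11 in hippocampus was -0.23 (SE 0.079).

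Bcl2l1 was highest in the brain libraries that were rich in hemoglobin. In 9 of 48 brain libraries, from 4 animals, Hbb-bs, which encodes adult beta-globin, exceeded a level of 12. Bcl2l1 stood at 5.938 and 6.074 in the 2 such libraries of prefrontal cortex against 5.480 to 5.877 in the other 14, at 5.978 to 6.112 in 3 of hippocampus against 5.420 to 5.828, and at 6.005 to 6.261 in 4 of hypothalamus against 5.633 to 6.001. It was the 1 member of 10 with all hemoglobin-rich libraries above the others, in each of the 3 regions, and no member had them all below. Of all tested genes, 2.65%, 2.73% and 3.1% had all hemoglobin-rich libraries above the others, and 1.37% had it in all 3 regions. Animal C7 was hemoglobin-rich in hippocampus and hypothalamus but not in prefrontal cortex, where its Bcl2l1 was 5.72. Without these libraries the UCMS difference of Bcl2l1 was -0.055, -0.063 and -0.14 in prefrontal cortex, hippocampus and hypothalamus.

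In blood, the 3 genes whose levels over 16 libraries were most like Bcl2l1, after removal of group means, were Slc4a1 (Pearson's r = 0.969), the red cell anion exchanger, Bsdc1 (0.957) and Fech (0.954), the last enzyme of heme synthesis. These are descriptions over libraries that share a normalization, and no p is given.

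**Figure D5:**
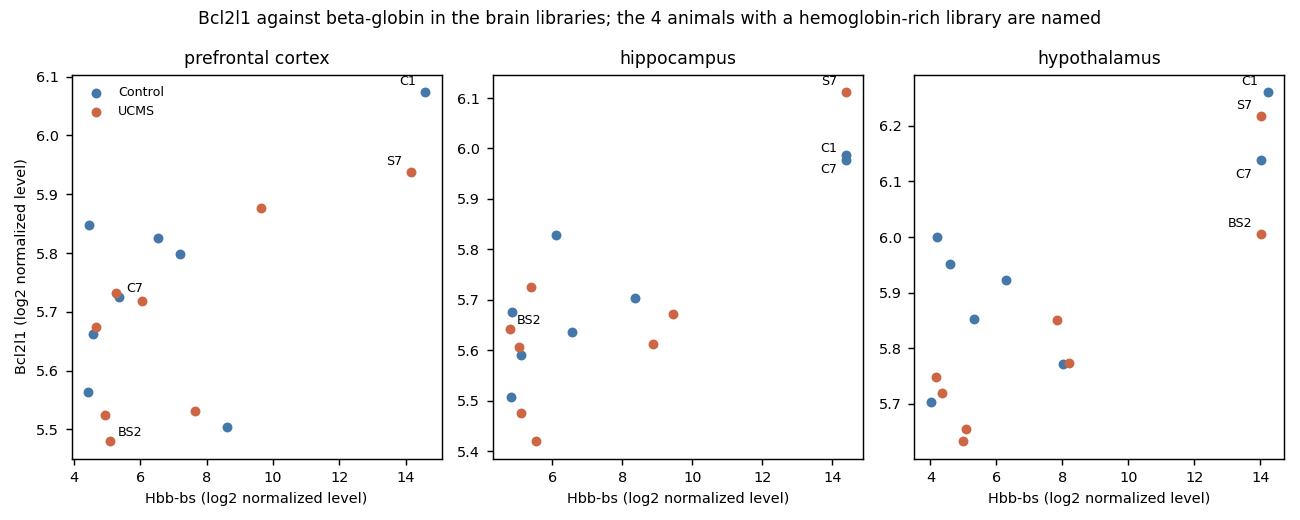
Log2 level of Bcl2l1 against that of Hbb-bs in each brain library, 1 panel per region, controls in blue and UCMS in orange, with the 4 animals that had a hemoglobin-rich library named. In each region the libraries with Hbb-bs above 12 have the highest Bcl2l1.

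Relations between members across animals were computed for 3 pairs in 4 tissues on deviations from the group means, 12 in all, and 0 passed with adjustment over the family. Bax and Bcl2 in prefrontal cortex had Pearson's r = -0.589 (permutation p = 0.0220, adjusted 0.264) and Spearman's rho = -0.265 (permutation p = 0.321, adjusted 0.738). Without the 2 libraries farthest from the Bax median r was weaker, at -0.285, and leaving them out also narrows the range of Bax. Bax and Bak1 in hippocampus had r = 0.501 (permutation p = 0.0465, adjusted 0.279) and rho = 0.315 (permutation p = 0.235, adjusted 0.738), and r was 0.407 without the 2 farthest.

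The wider mitochondrial pathway was read from a list of 56 other genes: further BCL2 relatives, downstream caspases and their regulators, and upstream kinases, ligases and transcription factors. Of these, 43 were tested in hypothalamus and 42 in each other tissue, and 0 passed with adjustment in any tissue. At an unadjusted p under 0.05 stood 0 in each brain region (background 2.18%, 2.95% and 2.12% of all tested genes) and 3 of 42 in blood, where the background was 10.8%. Casp9, the initiator caspase of the apoptosome, stood in blood at 3.94 ± 0.33 (n = 7) in controls and 4.39 ± 0.41 (n = 9) in UCMS, a difference of 0.45 (SE 0.19). Moap1, a Bax-binding protein, differed there by 0.46 (SE 0.19) and Ywhaz, a 14-3-3 protein, by -0.35 (SE 0.16).

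In the brain regions the smallest p values belonged to Bbc3 (PUMA), a BH3-only target of p53, in prefrontal cortex, with 0.36 (SE 0.19), to Cycs, cytochrome c, in hippocampus, with -0.092 (SE 0.051), and to Casp2 in hypothalamus, with -0.13 (SE 0.067). For the mean of the regions, 1 of 40 tested genes stood at an unadjusted p under 0.05, Bnip3, a mitophagy receptor, with -0.079 (SE 0.035), where the background was 3.62%. Median differences over the list were -0.018 in blood and -0.012, -0.016 and -0.0055 in prefrontal cortex, hippocampus and hypothalamus.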

How the data were processed

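RNA from 64 libraries was sequenced from directional, rRNA-depleted libraries made from 100 ng of total RNA, per the labels' protocols. The authors deposited 1 table per tissue of normalized levels, read here as log2 values. The log2 base and quantile normalization between libraries were inferred from the values: at 72.4% to 89.4% of ranks all libraries of a table were equal within 0.002. The submitters' processing notes name GRCm38.p4 as genome build. Which aligner, counting tool, annotation and strand setting were used is not given in the sources used here. Depth is unknown, so the spread between animals sets the precision.

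Groups were treatment within tissue, as labelled, 1 library per animal. limma 3.58.1 (R 4.3.3) was fitted per tissue on all genes but the 10% with the lowest mean level (14127, 14015, 14539 and 7947 genes in prefrontal cortex, hippocampus, hypothalamus and blood, and 13517 for the regional mean of each animal), with a trended prior, two-sided, and Benjamini-Hochberg adjustment at 0.05. The fit was tested on simulated data. Exact permutation tests of single differences were two-sided. Correlations used 100000 resamples. Gene positions are from GENCODE M21. The members and lists were chosen with earlier results of these data known. Named genes were all 10 members, up to 3 genes per tissue of the wider list with the smallest unadjusted p under 0.05 (or 1 where none), and the 3 genes most like Bcl2, Bcl2l1, Mcl1 and Bax. The alternatives left out each library, the hemoglobin-rich libraries or the BS animals, dropped the filter or the trend, or added a replicate block, a myelin score or a long-gene index.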

Additional observations from a re-analysis of the deposited data

Results flagged for a closer look

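In groups of 7 to 9 libraries, 12 of 92 groups (13.0%) held a library far from the others by Dixon's test. Its nominal rate of about 1 in 20 holds for independent groups of normal values. Here the groups share libraries, and some are the balance or Bax minus Bcl2 built from the same members. The share over all genes was not computed. Of these 12, 5 came from 2 libraries. UCMS replicate 5 of prefrontal cortex had Bcl2 at 6.482 (nearest 7.132) and Bax minus Bcl2 at -1.561 (nearest -2.518). UCMS replicate 3 of hippocampus had Bcl2l2 at 6.867 (nearest 6.351), Bak1 at 4.265 (nearest 3.727) and the balance at -1.1956 (nearest -1.4483).

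The other 7 were single values. In hippocampus, Bcl2l1 stood at 6.112 in UCMS replicate 6 (nearest 5.726), a hemoglobin-rich library, Bak1 at 3.215 in control replicate 2 (nearest 3.518) and Bcl2l11 at 6.046 in control replicate 4 (nearest 5.828). In hypothalamus, Bok stood at 5.387 in control replicate 5 (nearest 4.673). In blood, Mcl1 stood at 5.639 in control replicate 6 (nearest 6.164) and Bid at 2.319 in UCMS replicate 7 (nearest 2.989). The prefrontal balance of control replicate 3 was -1.5487 (nearest -1.6705).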

How the results depend on the processing

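Of 1042 recomputed values of 46 member differences, 997 kept their direction, 45 reversed and 0 came to pass, and 32 differences never reversed. The 997 include values whose direction was fixed in advance. The exact permutation test carries over the main difference, and dropping the filter or the trend leaves a difference of means unchanged. So does the replicate block in the brain. Leaving out the BS animals in a brain region repeats leaving out UCMS replicate 8. Without the hemoglobin-rich libraries these values reversed: Bok -0.016 in prefrontal cortex and 0.053 in hypothalamus, Bcl2 -0.018 in hypothalamus, Bid 0.014 in the brain mean, and in hypothalamus r of Bax with Bcl2 -0.044 and of Mcl1 with Bcl2l11 -0.036. Without the BS animals Bak1 was 0.021 in hippocampus and Bok 0.0021 in hypothalamus. With the long-gene index Bok was -0.014 in prefrontal cortex. Leaving out 1 library at a time gave -0.056 to 0.073 (Bok) and -0.12 to 0.044 (Bcl2l11) in prefrontal cortex, -0.096 to 0.046 (Bak1) and -0.013 to 0.032 (Mcl1) in hippocampus, -0.0023 to 0.045 (Bad), -0.072 to 0.0092 (Bak1), -0.18 to 0.078 (Bok) and -0.00077 to 0.070 (Mcl1) in hypothalamus, and -0.011 to 0.044 (Bax), -0.082 to 0.0037 (Bcl2l11), -0.086 to 0.0080 (Bid), -0.018 to 0.064 (Bok) and -0.023 to 0.0082 (Mcl1) in the brain mean. Genes at an unadjusted p under 0.05 numbered 336 to 688 in hippocampus, 304 to 892 in the brain mean and 600 to 1058 in blood with 1 library left out, 848 in hippocampus and 519 in blood with the long-gene index, 485 in hypothalamus with the myelin score and 926 in the brain mean without animals with a hemoglobin-rich library. Genes passing in blood were 0 to 1 with 1 library left out, and the 1 gene passing for blood minus hypothalamus became 0 without those animals. The causes were not tested. Whether same-numbered samples pair was not tested. Correlations of their deviations exceeded 0.1 for 6 of 8 pairs of prefrontal cortex, with a highest r of 0.551. The same held for 3 of 8 pairs of hippocampus (highest 0.513), 3 of 8 of hypothalamus (0.299) and 2 of 7 of blood (0.250). UCMS libraries most like the control of their own number were 3, 1, 0 and 1, in that order. The replicate block changed no call. With it, genes at an unadjusted p under 0.05 numbered 459 for prefrontal cortex, against 308 in the main fit. They numbered 387 for hippocampus (main 414), 315 for hypothalamus (308), 850 for blood (859) and 581 for the brain mean (489).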

Other observations

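The genes most like Bcl2, Mcl1 and Bax across the 16 libraries of a table, after removal of group means, are given as a description. For Bcl2 they were Zfp729b (Pearson's r = 0.966), Atl2 and Snx14 in prefrontal cortex, Gm16464 (0.906), Zfp708 and Zfp72 in hippocampus, B430319G15Rik (0.803), Kctd10 and Tsen34 in hypothalamus and Dpp4 (0.859), Ttpal and Acadm in blood. For Mcl1 they were led by Nadk2 (0.797), Gm9794 (0.893), Gcnt2 (0.897) and Armc7 (0.833) in the same order of tissues. For Bax they were led by Ciao1 (0.892) in prefrontal cortex, Serping1 (0.864) in hippocampus and Rnf44 (0.823) in hypothalamus. For Bcl2l1 in the brain they were led by Litaf (0.883), Iscu (0.944) and Lims1 (0.961).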
